A study of Mus musculus with 6 samples.

Results

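The 35 genes described here mark endothelium, the cell layer that lines every blood and lymph vessel. They were taken from a list of endothelial genes that leaves out the VEGF and Tie receptors, and each was measured through 1 probe set that carries its symbol alone. All 35 listed genes were measured, among 19938 genes in all. Of these, 31 were read as pan-endothelial and 4 as venous or lymphatic, namely Aplnr, Nr2f2, Prox1 and Stab2. Both tissues, ascending aorta and descending aorta, came from untreated wild-type embryos of the C57BL/6 strain, taken 13.5 days postcoitum, with 3 arrays a segment. The series was made to compare vascular smooth muscle derived from neural crest with that derived from mesoderm. Replicates are labelled biological, but it is not said which embryos or litters they came from or whether tissue was pooled. The p-values therefore cover only the variation among these 6 arrays, part of which may be technical. Values are log2 expression after the authors' RMA processing, and every difference is ascending minus descending.

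Endothelial identity rests on a small set of transcription factors, among them the ETS factors Erg and Fli1 and the SOX factors Sox7, Sox17 and Sox18, which bind the regulatory regions of genes for junctions, receptors and the luminal surface. Arteries, veins, capillaries and lymphatics share this programme and add genes of their own. Nr2f2 is needed for venous fate, Prox1 for lymphatic fate, and Notch signalling with Sox17 favours arterial fate. The endothelium of the aorta itself is a single layer on the inner face of the wall. The small vessels that feed the wall and the surrounding tissue can add capillary and venous endothelium to a dissected sample.

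Promoter sequences are shown for Emcn and Adgrl4, which lay far lower on a pair of ascending arrays, and for Cd34, which did not. RefSeq gave a window for 16 of the 35 genes on GRCm38.p6. The bases shown lie before the first annotated base of each gene on the plus strand, at chr3:137340828-137341061 for Emcn, chr3:151437632-151437881 for Adgrl4 and chr1:194938571-194938820 for Cd34. Capitals mark the letters GGAAG or, on the other strand, CTTCC, a core bound by ETS factors.
Emcn: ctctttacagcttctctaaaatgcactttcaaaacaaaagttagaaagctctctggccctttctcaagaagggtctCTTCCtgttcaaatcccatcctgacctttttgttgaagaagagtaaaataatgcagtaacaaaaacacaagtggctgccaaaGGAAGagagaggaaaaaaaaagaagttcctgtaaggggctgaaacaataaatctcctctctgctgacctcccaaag
Adgrl4: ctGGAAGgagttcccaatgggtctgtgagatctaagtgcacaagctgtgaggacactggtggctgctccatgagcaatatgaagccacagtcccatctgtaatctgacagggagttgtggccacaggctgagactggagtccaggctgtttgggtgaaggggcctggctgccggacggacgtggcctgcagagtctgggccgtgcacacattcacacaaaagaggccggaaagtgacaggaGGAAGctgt
Cd34: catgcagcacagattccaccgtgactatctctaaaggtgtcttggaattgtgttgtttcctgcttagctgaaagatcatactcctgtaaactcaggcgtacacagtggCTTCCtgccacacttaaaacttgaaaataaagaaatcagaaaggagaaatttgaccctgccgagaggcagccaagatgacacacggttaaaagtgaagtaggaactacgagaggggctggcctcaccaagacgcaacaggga
The 250 bases before the start held 2 such matches for Emcn, 2 for Adgrl4 and 1 for Cd34. The 16 genes had 23 windows, as some have several starts, and the motif was present in 18 of these 23 and in 64.1% of all 32851 windows of that length. The SOX core ACAAT or ATTGT was found in 5 of the 23 windows and in 27.7% of all windows. A match describes the letters only, and whether match numbers go with the differences was not tested.

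The ascending arrays did not lie together. Across genes, ascending replicate 3 had a mean correlation of 0.996 with the descending arrays and 0.988 with ascending replicates 1 and 2, so results are also given without it. Ascending replicate 2 was at 0.993 with ascending replicate 1, but at 0.983 to 0.987 with the descending arrays and 0.986 with ascending replicate 3. When arrays were weighted in limma, ascending replicate 2 had the lowest weight, 0.57, against 0.58 for descending replicate 1 and 0.63 for ascending replicate 3. Every array was kept in its labelled group. Descending replicate 1 gave the highest value of the 6 arrays for 22 of the 35 endothelial genes, where it did so for 31.7% of all genes. As a rough check of the tissue, 34 of the 35 genes had a mean above the median of all genes, and Stab2 was the exception. In whole tissue, fewer endothelial cells and less RNA per cell cannot be told apart.

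Most endothelial genes had a lower mean in ascending aorta, by amounts from near 0 to more than 1 on the log2 scale. The mean was lower in 30 of the 35 genes, against 56.2% of all genes, and the median difference was -0.27 against -0.021 over all genes. Emcn, Aplnr, Robo4 and Adgrf5 were lower by more than 1, while Lmo2, Tal1, Ramp2, Icam2 and Prox1 differed by less than 0.1 in either direction. No endothelial gene passed an adjusted p of 0.05 in limma over all 6 arrays, where 0% of all genes passed (smallest adjusted p = 0.53). At an unadjusted p under 0.05 there were 15 endothelial genes lower, where 5.33% of all genes were, and 0 higher, where 3.96% were. The 3 ascending arrays lay entirely below the 3 descending arrays for 11 of the 35, against 8.95% of all genes, and entirely above for 0, against 5.87%. Without ascending replicate 3, 11 endothelial genes fell at an adjusted p of 0.05 by limma, against 2.61% of all genes, and 0 rose, against 2.07%. Because the array left out was picked for how it looked, errors and p-values without it are probably too small. Without descending replicate 1 as well, 7 fell, against 1.18% of all genes, and 0 rose, against 1.17%. Ascending replicates 1 and 2 lay below all 3 descending arrays for 24 of the 35 genes, against 18.9% of all genes, and above them for 2, against 15.6%. Of those 24 genes, ascending replicate 3 lay within the descending range for 10, below it for 11 and above it for 3.

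**Figure D1:**
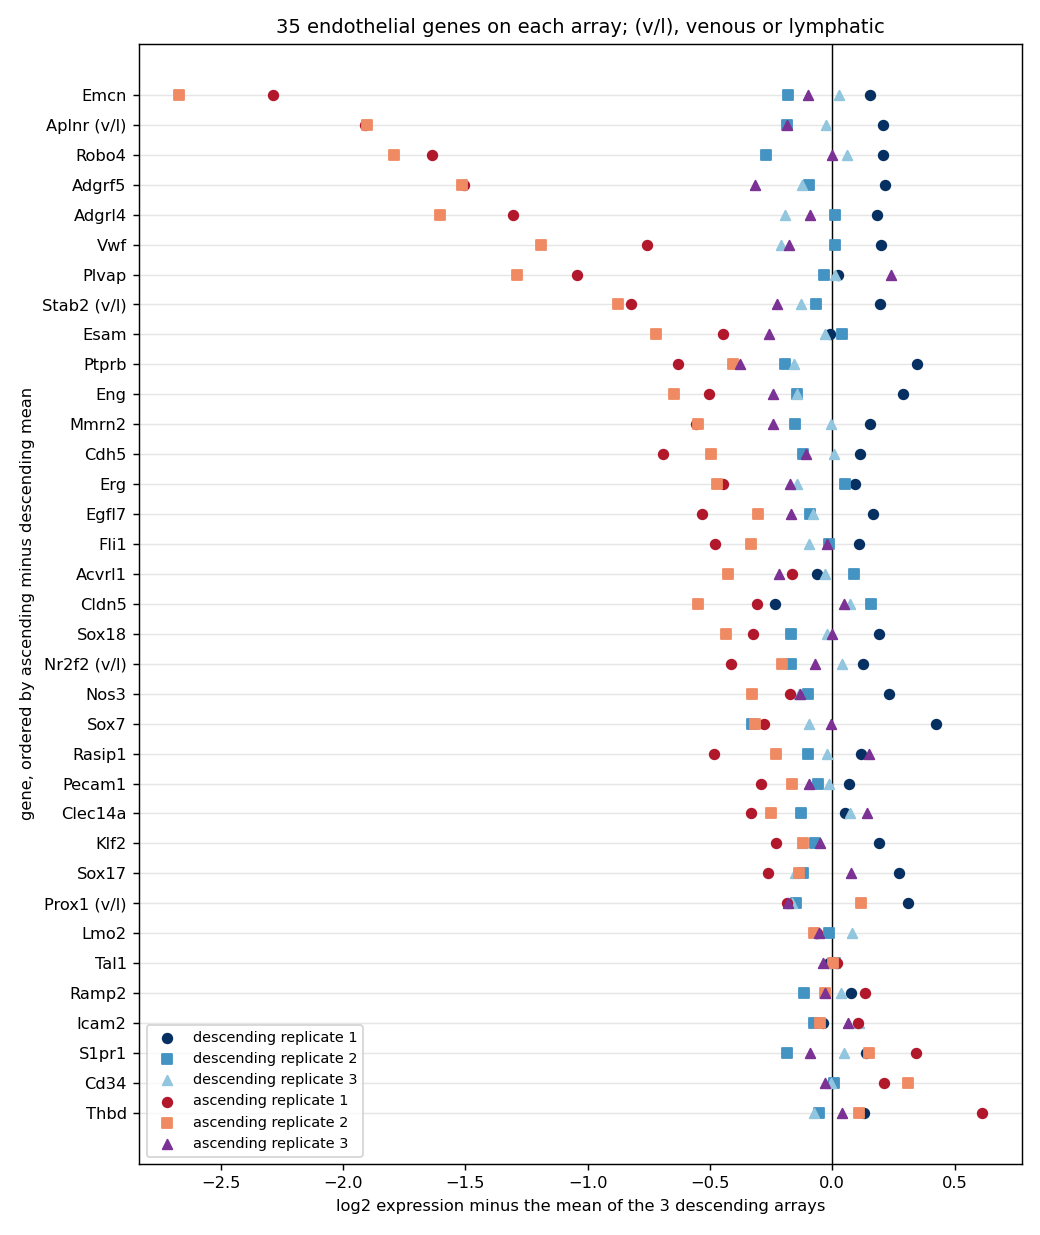
Log2 expression of the 35 endothelial genes on each of the 6 arrays, as the distance from the mean of the descending arrays (x axis), ordered by the difference of the means (y axis). Ascending replicates 1 and 2 run from far below the descending arrays at Emcn to above them at Cd34, while ascending replicate 3 stays between -0.38 and 0.24.

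Among the genes of junctions and the cell surface, 7 of 9 had a lower mean in ascending aorta, with a median difference of -0.43. Emcn encodes endomucin, a sialomucin of capillary and venous endothelium that limits leukocyte adhesion. Emcn (probe set 10496359) read 9.56, 9.18 and 11.75 in ascending aorta, in the order of replicates 1, 2 and 3 used throughout. In descending aorta it read 11.67 and 11.88 on replicates 2 and 3 and just over 12 on replicate 1. Ascending replicate 3 lay inside the descending range, so the groups overlapped, with means of 10.17 ± 1.39 and 11.85 ± 0.17 (SD, n = 3) and a difference of -1.68 ± 0.59 (SE). Without that array Emcn fell by 2.48 ± 0.15 (SE), a 5.57-fold difference (adjusted p = 0.000245 by limma). Plvap (probe set 10579525), the diaphragm protein of fenestrated endothelium and caveolae, was singled out after its values were seen. Its ascending values were 9.11, 8.86 and 10.39, against 10.17, 10.12 and 10.16 in descending aorta. Ascending replicate 3 was the highest of all 6 arrays for Plvap, on the other side from replicates 1 and 2. The difference was -0.70 ± 0.35 (SE), and without ascending replicate 3 Plvap fell by 1.16 ± 0.10 (SE).

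Genes of the adherens and tight junctions differed by less. Cdh5, the VE-cadherin of endothelial adherens junctions, read 11.80 and 12.39 on ascending replicates 1 and 3, with replicate 2 between them, and 12.61, 12.37 and 12.50 on the descending arrays. Only ascending replicate 3 reached the descending values. The difference of Cdh5 was -0.43 ± 0.15 (SE), and without ascending replicate 3 it fell by 0.59 ± 0.11 (adjusted p = 0.0246 by limma). Without descending replicate 1 as well, the adjusted p of Cdh5 was 0.0766 by limma. Esam, an immunoglobulin-like adhesion molecule of tight junctions, had the smallest p of the 35 genes (adjusted p = 0.53 by limma). It read 10.64, 10.36 and 10.83 in ascending and 11.08, 11.12 and 11.05 in descending aorta, with no overlap and a difference of -0.48 ± 0.12 (SE). In the fit without ascending replicate 3 Esam fell by 0.58 ± 0.11 (SE), and without descending replicate 1 as well its adjusted p was 0.0754 by limma. Ptprb, the receptor phosphatase VE-PTP that acts on VE-cadherin and Tie2, read 10.49, 10.72 and 10.75 against 11.47, 10.93 and 10.97. The groups did not overlap, with descending replicate 1 the highest array, and differed by -0.47 ± 0.16 (SE). Cldn5, the tight junction claudin of endothelium, differed by -0.27 ± 0.17 (SE) with overlapping groups. Pecam1, the classical marker CD31 at cell contacts, read 10.51, 10.64 and 10.71 in ascending and 10.87, 10.75 and 10.79 in descending aorta. The order of the groups was complete but the distance small, at -0.18 ± 0.08 (SE).

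Icam2 and Cd34 were not lower by their means. Icam2, a leukocyte ligand on resting endothelium, read 9.28, 9.13 and 9.24 in ascending and 9.14, 9.10 and 9.29 in descending aorta. The groups overlapped fully, with a difference of 0.04 ± 0.09 (SE). Cd34, a sialomucin of endothelium that blood progenitors and some mesenchymal cells also carry, was named after its values were seen. It read 12.93, 13.03 and 12.69 against 12.72, 12.72 and 12.71. Ascending replicates 1 and 2 were above every descending array and replicate 3 below them, and the difference was 0.16 ± 0.10 (SE), or 0.26 without ascending replicate 3 (adjusted p = 0.17 by limma).

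Of the receptor and signalling genes, 6 of 8 had a lower mean in ascending aorta, and their median difference was -0.37. Robo4 (probe set 10584288), an endothelial roundabout receptor that stabilises the vessel barrier, read 7.97, 7.82 and 9.61 in ascending and 9.82, 9.34 and 9.67 in descending aorta. Its difference was -1.14 ± 0.44 (SE), and without ascending replicate 3 it fell by 1.71 ± 0.15 (adjusted p = 0.000999 by limma). Adgrf5 (probe set 10445268), an adhesion G protein-coupled receptor of microvascular endothelium, read 8.70, 8.70 and 9.89 against 10.42, 10.11 and 10.09. Here ascending replicate 3 also lay below every descending array, and the difference was -1.11 ± 0.31 (SE). Adgrl4, also known as Eltd1, is an adhesion receptor linked to angiogenic sprouting. Its probe set, 10496872, read 7.37, 7.07 and 8.58 against 8.86, 8.69 and 8.48, with ascending replicate 3 inside the descending range. The mean was 7.67 ± 0.80 in ascending and 8.67 ± 0.19 in descending aorta (SD, n = 3). Without ascending replicate 3 Adgrf5 fell by 1.51 ± 0.12 and Adgrl4 by 1.45 ± 0.14 (SE).

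The TGF-beta and BMP receptors of endothelium lay closer to zero. Eng, the co-receptor endoglin, read 11.18, 11.04 and 11.44 in ascending and 11.97, 11.54 and 11.54 in descending aorta. The groups did not overlap and differed by -0.46 ± 0.15 (SE), and without ascending replicate 3 by -0.57 (adjusted p = 0.0758 by limma). Its partner receptor Acvrl1, or ALK1, differed by -0.27 ± 0.10 (SE), also without overlap. Ramp2, which turns the calcitonin receptor-like receptor into an adrenomedullin receptor, read 10.92, 10.75 and 10.75 against 10.86, 10.67 and 10.82. Its difference was 0.03 ± 0.09 (SE), within the spread of either group. Rasip1, a Rap1 effector needed for vessel lumens, differed by -0.19 ± 0.16 (SE). S1pr1, a receptor for sphingosine 1-phosphate that cells of the vessel wall also make, differed by 0.13 ± 0.13 (SE). Neither Rasip1 nor S1pr1 showed separate groups.

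The transcription factors differed least as a set. All 8 had a lower mean in ascending aorta, but the range was -0.36 to -0.0040 and the median -0.17, and none of the 8 passed the adjusted test with or without ascending replicate 3. The median was -0.066 without descending replicate 1. Erg read 9.62, 9.60 and 9.89 in ascending and 10.16, 10.12 and 9.92 in descending aorta. The groups did not overlap, and the difference was -0.36 ± 0.11 (SE), or -0.46 without ascending replicate 3 (adjusted p = 0.0506 by limma). Fli1, its close relative, differed by -0.28 ± 0.13 (SE). The SOX factors Sox18, Sox7 and Sox17 differed by -0.25, -0.20 and -0.11, all with overlapping groups. Descending replicate 1 was the highest array for each of these SOX factors, and without it Sox7 differed by 0.013 and Sox17 by 0.030. Klf2, the factor induced by laminar flow, differed by -0.13 ± 0.11 (SE). Lmo2 and Tal1, partners in a complex of endothelial and blood progenitors, differed by -0.06 and -0.0040. Tal1 read 8.43, 8.42 and 8.38 in ascending and 8.40, 8.42 and 8.42 in descending aorta, so the arrays were nearly equal, and median-centring of the arrays gave 0.0028.

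Secreted, matrix and coagulation genes had a median difference of -0.27, with 5 of 6 lower. Vwf (probe set 10541910), the von Willebrand factor stored in endothelial granules, read 10.16, 9.73 and 10.74 in ascending and 11.12, 10.93 and 10.71 in descending aorta. Ascending replicate 3 reached the lowest descending array, and the difference was -0.71 ± 0.24 (SE). Vwf fell by 0.97 ± 0.16 without ascending replicate 3 (adjusted p = 0.0153 by limma), and without descending replicate 1 as well the adjusted p was 0.0619. Mmrn2, a matrix protein that binds the surface lectin Clec14a, read 9.41, 9.42 and 9.72 against 10.12, 9.82 and 9.96. The groups did not overlap and differed by -0.45 ± 0.12 (SE), and without ascending replicate 3 Mmrn2 fell by 0.55 ± 0.11 (SE). Its adjusted p by limma was 0.0314 in that fit and 0.0751 without descending replicate 1 as well. Clec14a itself differed by -0.15 ± 0.14 (SE). Egfl7, secreted by endothelium and host to a microRNA, differed by -0.33 ± 0.12 (SE) without overlap, and Nos3, the endothelial nitric oxide synthase, by -0.21 ± 0.12 (SE). Thbd, thrombomodulin, was the endothelial gene with the most positive difference. It read 11.00, 10.49 and 10.43 in ascending and 10.51, 10.33 and 10.31 in descending aorta, a difference of 0.25 ± 0.16 (SE) with overlapping groups.

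**Figure D2:**
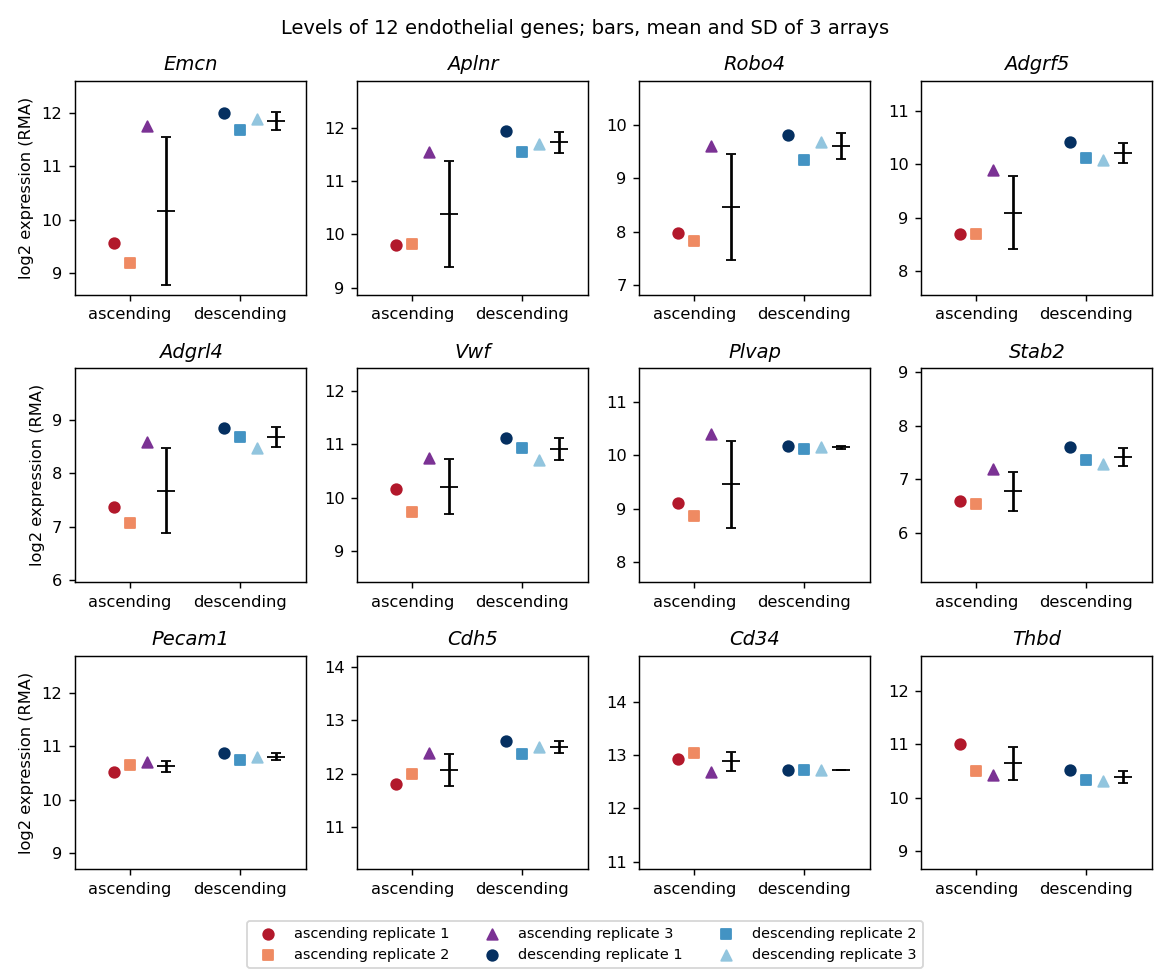
Log2 expression (y axis) of the 8 endothelial genes with the lowest differences, and of Pecam1, Cdh5, Cd34 and Thbd, on each array of ascending and descending aorta (x axis). Bars give the mean and SD of 3 arrays, and each panel spans 4 log2 units. In the first 8 panels ascending replicate 3 is the highest ascending array, within the descending range for Emcn, Robo4, Adgrl4 and Vwf, below it for Aplnr, Adgrf5 and Stab2 and above it for Plvap.

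The 4 venous or lymphatic genes spread widely. The median difference was -0.44 over them and -0.27 over the 31 pan-endothelial genes, and they ran from -1.33 to -0.083. Aplnr (probe set 10473444), the apelin receptor of embryonic veins and growing capillaries, read 9.81, 9.82 and 11.53 in ascending and 11.93, 11.54 and 11.70 in descending aorta. Ascending replicate 3 was next to the lowest descending array, and the difference was -1.33 ± 0.43 (SE). Aplnr fell by 1.90 ± 0.13 without ascending replicate 3, a 3.74-fold difference (adjusted p = 0.000327 by limma). Stab2 (probe set 10371506), a scavenger receptor of sinusoidal and lymphatic endothelium, read 6.59, 6.54 and 7.19 against 7.61, 7.35 and 7.29. The groups did not overlap, the difference was -0.64 ± 0.18 (SE), and without ascending replicate 3 it fell by 0.85 ± 0.12 (SE).

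The regulators of venous and lymphatic fate were closer to zero than Aplnr and Stab2. Nr2f2, or COUP-TFII, which mesenchymal cells also express, read 9.65, 9.86 and 9.99 in ascending and 10.19, 9.89 and 10.10 in descending aorta. Its groups overlapped, with a difference of -0.23 ± 0.12 (SE). Prox1, which heart muscle also makes, read 8.32, 8.62 and 8.33 against 8.82, 8.36 and 8.34. Descending replicate 1 was the highest array, and the difference of -0.083 ± 0.15 (SE) became 0.073 without it. Whether venous or lymphatic genes differed from pan-endothelial ones was not tested, since the genes were chosen with earlier results known. With Emcn and Plvap counted among them, the venous or lymphatic median was -0.67 and that of the other 29 genes -0.25. Emcn, at -1.68, and Plvap, at -0.70, already lay below the medians of both lists. The wider gap therefore follows from moving them and says nothing more about venous or lymphatic genes.

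**Figure D3:**
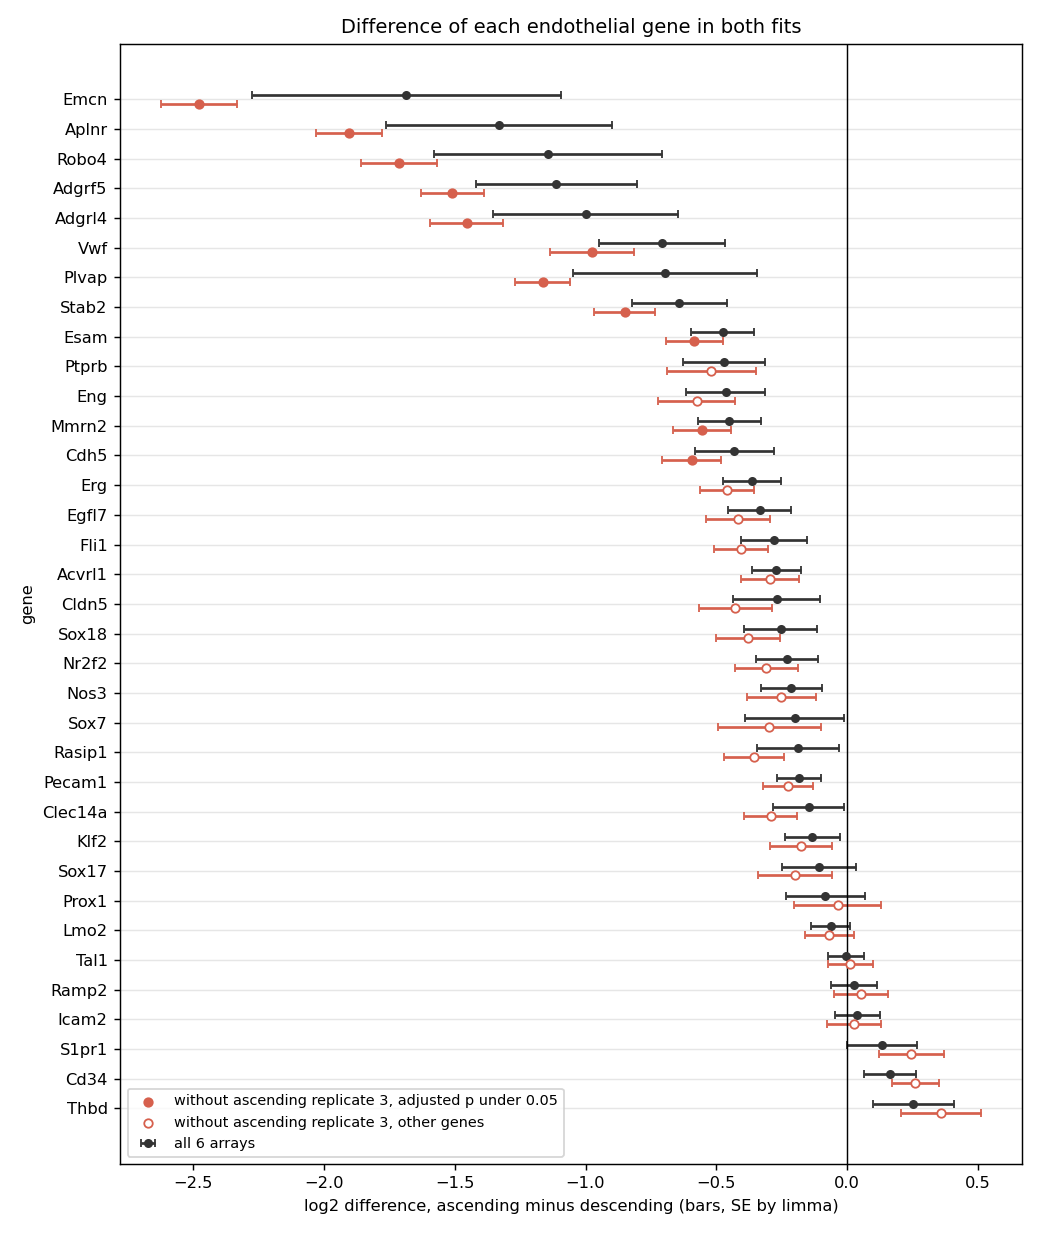
Log2 difference of ascending minus descending aorta (x axis, bars give the SE by limma) for the 35 endothelial genes (y axis), over all 6 arrays and without ascending replicate 3. Filled red points mark the 11 genes that passed an adjusted p of 0.05 without that array, all lower in ascending aorta.

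Endothelial genes outside the list were mostly lower by their means as well. Of 29 further endothelial genes that were measured, 26 had a lower mean in ascending aorta, against 56.2% of all genes, with a median of -0.19, and 0 passed the adjusted test over all arrays. In the fit without ascending replicate 3, 4 of the 29 fell, against 2.61% of all genes, and 0 rose, against 2.07%. Heg1, which anchors junctions to the actin cytoskeleton, differed by -0.23 ± 0.07, Cd93, a surface lectin that binds Mmrn2, by -0.30 ± 0.09, Gimap6 by -0.42 ± 0.13 and Rasgrp3 by -0.57 ± 0.21 (SE). Of 10 further venous or lymphatic genes, 8 were lower, with a median of -0.38, and without ascending replicate 3, 6 of the 10 fell and 0 rose, set against the same 2.61% and 2.07%. Lyve1, which lymphatic endothelium and tissue macrophages use to bind hyaluronan, read from 7.2 to 9.90 in ascending and from 10.34 to 10.64 in descending aorta, a difference of -2.13 ± 0.59 (SE). Reln differed by -0.53 ± 0.11, Ackr1, a chemokine-binding receptor of venules, by -0.44 ± 0.12 and Pdpn, which mesothelium also carries, by -0.53 ± 0.15 (SE). The mean lay above the median of all genes for 21 of the 29 and for 9 of the 10, Ackr1 not among them.

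Arterial genes gave both directions. Of 13 measured, 8 were lower and 5 higher by their means, the median was -0.10, and 0 passed over all 6 arrays. Gja5, an arterial connexin, read 9.65, 9.42 and 9.99 in ascending and 10.12, 10.20 and 10.13 in descending aorta, and Notch4 differed by -0.28 ± 0.11 (SE), both without overlap. Hey1, a Notch target that smooth muscle also expresses, differed by 0.32 ± 0.12 and Gja4, another connexin, by 0.27 ± 0.13 (SE). Without ascending replicate 3 the arterial list had 1 gene lower, Gja5, and 1 gene higher, Efnb2, the ephrin of arterial endothelium and smooth muscle, at 0.60 (adjusted p = 0.0311 by limma). Capillary genes were mixed as well, with 5 of 9 lower. Cd36, a fatty acid translocase that macrophages share, differed by -1.23 ± 0.42 and Fabp4 by -0.88 ± 0.24, while Lpl differed by 0.54 ± 0.17 and Mfsd2a by 0.34 ± 0.09 (SE). Of 7 endocardial genes 4 were lower, with Tmem100, a target of endothelial BMP signalling, at -0.76 ± 0.17 and Npr3 at -0.34 ± 0.14 (SE). The mean of Tmem100 lay below the median of all genes, and 5 of the 9 capillary genes had means above it. Gata4 and Cdh11 of that list differed by 1.31 and -0.18. In the fit without ascending replicate 3, 2 of the 9 capillary genes fell, against 2.61% of all genes, and 1 rose, against 2.07%. There 1 of the 7 endocardial genes fell and 1 rose, namely Gata4, by 1.82 (adjusted p = 0.000261 by limma). Which cells of the whole tissue made Gata4, Cdh11 or Lpl was not tested.

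**Figure D4:**
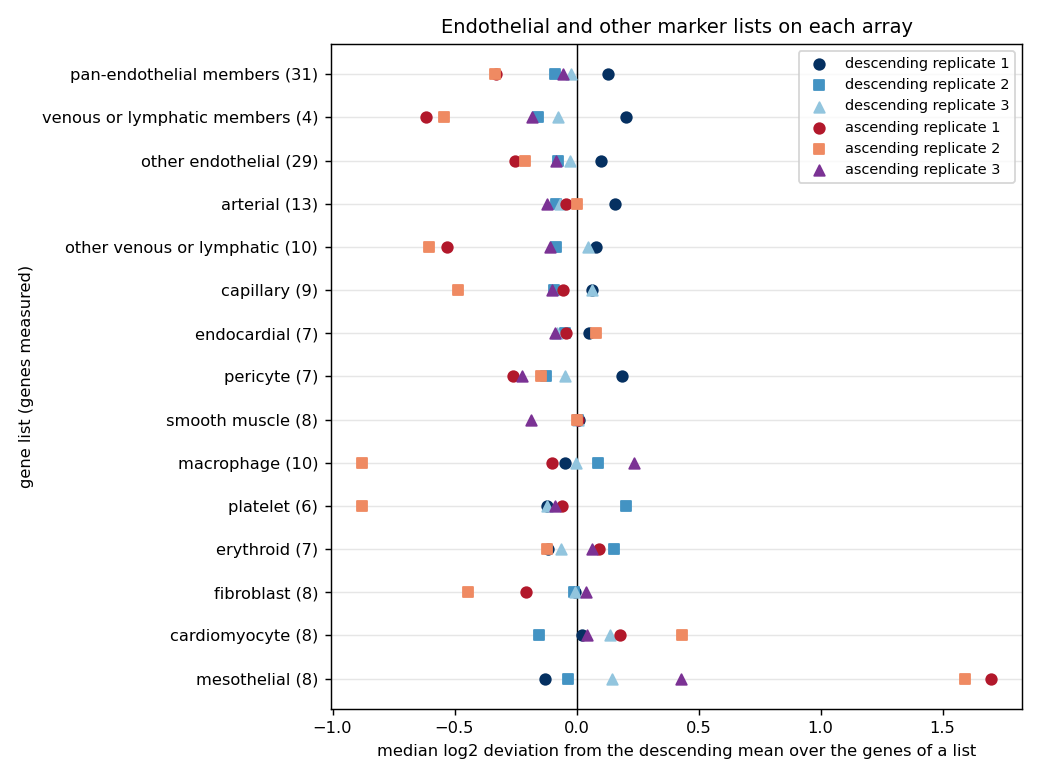
Median log2 deviation from the descending mean over the genes of each list (x axis) on each of the 6 arrays, with the number of genes measured in brackets (y axis). Ascending replicates 1 and 2 lie below the descending arrays for pan-endothelial and venous or lymphatic genes, overlap them for arterial genes and lie far above them for mesothelial genes.

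Markers of other cell types differed along with the endothelial genes, and their part in the endothelial differences was not tested. Mesothelial markers were higher in 8 of 8 genes. Their median deviation was 1.70, 1.59 and 0.43 on ascending replicates 1, 2 and 3 and between -0.13 and 0.14 on the descending arrays. The summed mesothelial level ran from 12.37 to 13.57 in ascending and from 11.79 to 12.24 in descending aorta, in log2 of the sum. Upk1b, Upk3b, Tcf21 and Lrrn4 differed by 1.94, 1.64, 1.41 and 0.76. Cardiomyocyte genes were higher in 8 of 8, with summed levels of 12.30 to 12.98 against 11.83 to 12.18, and Tnnt2, Actc1, Myl7 and Nppa differed by 1.47, 0.48, 0.44 and 0.20. By the medians of these lists too, ascending replicate 3 lay nearer the descending arrays than replicates 1 and 2. Single genes did not all follow. Myl7 read 9.93 on ascending replicate 3, the highest of its 6 arrays, and Actc1 read 11.31 there, above every descending array. RMA values have no zero, and 7 of the 8 mesothelial and 5 of the 8 cardiomyocyte genes, Nppa not among them, had a mean above the median of all genes.

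Macrophage genes were lower in 9 of 10, with a median of -0.23 and summed levels of 12.05 to 13.34 in ascending and 12.87 to 13.03 in descending aorta. The ascending arrays disagreed, at median deviations of -0.10, -0.88 and 0.24. Mrc1, which endothelium of sinusoids and lymphatics shares with macrophages, differed by -1.10, and Cd68, Adgre1 and Cx3cr1 by -0.37, -0.36 and -0.25. Platelet genes were lower in 6 of 6, with sums of 10.80 to 11.69 against 11.64 to 12.14, and Itgb3, Pf4, Ppbp and Itga2b differed by -0.49, -0.72, -0.64 and -0.29. Ascending replicate 2 held the lowest median, -0.88. Of these lists, 8 of the 10 macrophage and 6 of the 6 platelet genes had means above the median of all genes. Erythroid genes were lower in 3 of 7 (summed 14.12 to 14.48 against 14.31 to 14.63), with Alas2, Hba-x, Slc4a1 and Epor at -0.60, -0.33, -0.22 and 0.23.

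Mural and connective tissue lists had medians nearer 0 than the mesothelial one, at -0.18 for pericytes, -0.0051 for smooth muscle and -0.18 for fibroblasts. The pericyte and fibroblast medians were close to the -0.19 of the further endothelial genes. Pericyte genes were lower in 6 of 7, with sums of 14.04 to 14.11 against 14.11 to 14.38, and Anpep, Kcnj8, Abcc9 and Cspg4 differed by -1.01, -0.56, -0.43 and -0.18. Smooth muscle genes were lower in 4 of 8, with sums of 14.66 to 14.99 against 14.80 to 14.84, and Des, Myh11, Mylk and Tagln differed by 1.41, -0.53, -0.27 and 0.17. Fibroblast genes were lower in 7 of 8, with sums of 14.54 to 15.03 against 15.05 to 15.07. Dpt, Col14a1, Col1a1 and Lum differed by -1.22, -1.03, -0.37 and 0.31. None of the genes of these lists of other cell types passed the adjusted test over all 6 arrays. In the fit without ascending replicate 3, in which 2.07% of all genes rose and 2.61% fell, 6 of the 8 mesothelial genes rose, with Upk1b higher by 2.70 (adjusted p = 8.75e-05 by limma), a smaller p than that of Emcn. In that fit 3 of the 8 fibroblast and 2 of the 10 macrophage genes fell, 1 cardiomyocyte and 1 smooth muscle gene rose, 1 pericyte gene fell and 1 rose, and 0 erythroid and 0 platelet genes passed.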

How the data were processed

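Total RNA of the ascending and descending aorta was hybridised as biotinylated cRNA to Affymetrix arrays, per the labels' protocols. The deposited log2 expression values are those of the authors after RMA, and Partek 6.6 is also named per the submitters' processing notes. Values run from 2.53 to 14.6 with array medians of 7.14 to 7.22, as log2 data do. Settings and genome build: not given in the sources used here. Where RMA includes its usual quantile step, a shift shared by most genes cannot be seen.

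Of 35556 probe sets, 21789 had 1 symbol, 1621 several and 12146 none in the platform's annotation. The highest-mean probe set per gene was kept, giving 19938 genes. Each of the 35 endothelial genes had 1 probe set, and all 35 symbols matched RefSeq by Entrez number. The comparison of segments used limma (version 3.58.1, R version 4.3.3), with no covariate. Its p-values are two-sided and were adjusted by Benjamini-Hochberg across the 19938 genes, and the script was tested on simulated data. With 3 arrays a group the smallest p of an exact permutation test is 0.1. The number of arrays limits the precision.

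The endothelial genes and all lists were chosen with earlier results of these data known. Array values are given for the 12 endothelial genes with the smallest p, the 4 venous or lymphatic ones, Pecam1, Cdh5 and the 3 largest and 3 smallest differences, and for others named after their values were seen. Of each other list the 4 genes with the smallest p are named, with Efnb2 added afterwards. Tables were made with pandas 2.3.3 and plots with matplotlib 3.10.9, under Python 3.11.15. The alternatives were other normalizations, filters, probe set rules, variance models, array weights, a replicate block and leaving out arrays.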

Additional observations from a re-analysis of the deposited data

How the results depend on the processing

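Scaling, probe set averaging, variance models and array weights left 0 of 19938 genes past the adjusted threshold, and filters on dim genes left 0 of 14953 and 0 of 9969. Leaving out 1 array gave 0 to 521 genes lower and 0 to 412 higher, and 0 to 11 endothelial genes lower, with the upper counts from the fit without ascending replicate 3. At an unadjusted p under 0.05 the endothelial genes lower ranged from 7, without ascending replicate 1 (3.09% of all genes), to 23, without ascending replicate 3 (9.27%), and were 8 without ascending replicate 2 (3.85%) or descending replicate 1 (2.16%). Those higher ranged from 0 to 2, the latter without ascending replicate 3 (7.98%). Without both ascending replicate 3 and descending replicate 1, an alternative chosen after seeing the data, 236 genes were lower and 233 higher. Of the endothelial genes 7 were lower (1.18% of all genes) and 0 higher (1.17%) at the adjusted threshold. At an unadjusted p under 0.05, 21 were lower (7.57%) and 3 higher (7.54%). The test without moderated variance gave 5 endothelial genes lower at an unadjusted p (3.8% of all genes), where the test with it gave 15 (5.33%), because it does not share the spread between genes. Array weights gave 19 lower (7.43%) and 1 higher (6.4%) at an unadjusted p, and the cause was not tested. Counting Emcn and Plvap, both among the lowest genes, as venous moved the venous or lymphatic median to -0.67, a shift fixed by that choice. Median differences of pan-endothelial genes stayed between -0.38 and -0.19 with 1 array left out.

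Genes near zero changed sign. With 1 array left out Ramp2 ranged from -0.031 to 0.065, Sox7 from -0.36 to 0.013, Sox17 from -0.20 to 0.030, Tal1 from -0.016 to 0.012 and Prox1 from -0.18 to 0.073. Tal1 was at 0.0028 after median-centring, and without ascending replicate 3 and descending replicate 1 it was at 0.0048, Prox1 at 0.12 and Ramp2 at 0.092. Deviations from the group means correlated at -0.080, -0.055 and 0.024 for same-numbered arrays and at -0.064 to 0.17 for the others. With ascending replicate 3 far from replicates 1 and 2, such values cannot settle whether the replicate numbers pair the arrays. The replicate block gave 0 endothelial genes at the adjusted threshold and 13 lower at an unadjusted p (4.78%). The median of the transcription factors ranged from -0.25 to -0.066 with 1 array left out and was -0.10 with array weights and -0.092 without ascending replicate 3 and descending replicate 1. The mean of each gene's probe sets is the same value for the 35 genes, which have 1 probe set each. With 3 arrays a group, small differences are not resolved.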
